A study of Homo sapiens with 6 samples.

Results

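The YAP/TAZ-TEAD genes described here are 10 genes of the Hippo pathway output, taken by symbol from the 37887 rows of a raw count table of BT-549 cells. They are the coactivator genes YAP1 and WWTR1 (which encodes TAZ), the DNA-binding factor genes TEAD1 and TEAD4, and the target and regulator genes CYR61, CTGF, ANKRD1, AMOTL2, LATS2 and AJUBA. The table lists CYR61 as CCN1 and CTGF as CCN2, and its row named TAZ is tafazzin, an unrelated gene that was not used. All 10 symbols were found, and 9 had enough counts to be tested. BT-549 is an established human TNBC line with a mesenchymal character. RNA-seq was performed on 3 libraries named control shRNA, labeled with DMSO (0.1%), and on 3 named shPBRM1, labeled with doxycycline (DOX, 500 ng/ml). The series text describes both groups as BT-549 carrying a tet-PBRM1 shRNA vector, whereas the titles name a control shRNA, so DOX itself and the silencing of PBRM1 cannot be told apart. Other effects of the PBRM1 shRNA cannot be told apart either, nor, if the titles hold, a difference between the transduced populations. In its chromatin assays of PBRM1 silencing, the paper compared CshRNA with PBRM1shRNA cells, as in the titles. The cells were selected as puromycin-resistant populations after transduction with the vectors. The time on DOX is not given in the sources used here, and nothing states that the triplicate cultures were grown on separate days, so p-values measure the spread between these libraries.

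In the Hippo pathway, the kinases MST1 and MST2 (STK4 and STK3) with the scaffold SAV1 activate LATS1 and LATS2, which work with MOB1 and phosphorylate YAP and TAZ. Phosphorylated YAP and TAZ are held in the cytoplasm or degraded, and the unphosphorylated proteins enter the nucleus and bind TEAD factors, which carry the DNA-binding domain that the coactivators lack. In breast cancer cells of mesenchymal type, YAP and TAZ are known for promoting growth, invasion and self-renewal. CYR61, CTGF, ANKRD1 and AMOTL2 are among the genes most often used as readouts of this activity, and LATS2 and AMOTL2 feed back on YAP and TAZ. The libraries measure RNA and hold no information on the phosphorylation or location of the proteins.

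The libraries held between 36429395 and 65096297 counts. PBRM1 was at 158 ± 2.30 CPM (SD, n = 3) in control shRNA and 41.9 ± 1.22 CPM (SD, n = 3) in shPBRM1 libraries; CPM are counts scaled to library size after TMM normalization, and values after ± are SDs over the 3 libraries of a group throughout. The mesenchymal genes VIM, CDH2, ZEB1 and FN1 had group means of 134.7 CPM or more, while ESR1, EPCAM and PGR did not exceed 2, 8 and 12 counts in any library. From control shRNA to shPBRM1, FN1 fell from 554 to 221 CPM and ZEB1 from 197 to 135 CPM. VIM rose from 621 to 770 CPM and CDH2 from 252 to 366 CPM. ERBB2 was at 51.3 and 50.02 CPM in control shRNA and shPBRM1, and CDH1 fell from 5.002 to 1.51 CPM. Markers of blood and endothelial cells (PTPRC, CD3E, CD14, PECAM1 and CDH5) stayed at or under 44 counts in every library. PTPRC was lower and CD14 higher in shPBRM1, both under 1 CPM, and their part in the results was not tested.

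The YAP/TAZ-TEAD genes changed little and in both directions in shPBRM1 cells. With edgeR's quasi-likelihood test and a threshold of 0.05 on the adjusted p, CYR61, LATS2 and AJUBA rose, AMOTL2, WWTR1 and YAP1 fell, and TEAD1, TEAD4 and CTGF did not pass. None of the 9 tested genes changed more than 2-fold, and ANKRD1 was at the floor of detection. The 6 called genes of 9 are to be read against 64.7% of all 15450 tested genes called at the same threshold, 31.5% higher and 33.2% lower. The median log2 fold change was 0.058 for the 9 genes and -0.0080 for all tested genes. Past a fold change of 2, 12.6% of all tested genes were called, 2.87% higher and 9.68% lower. The normalized levels did not overlap between the groups for 6 of the 9 genes, and for 68.3% of all tested genes. In bulk RNA, fewer cells with a transcript and less transcript per cell cannot be told apart.

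**Figure D1:**
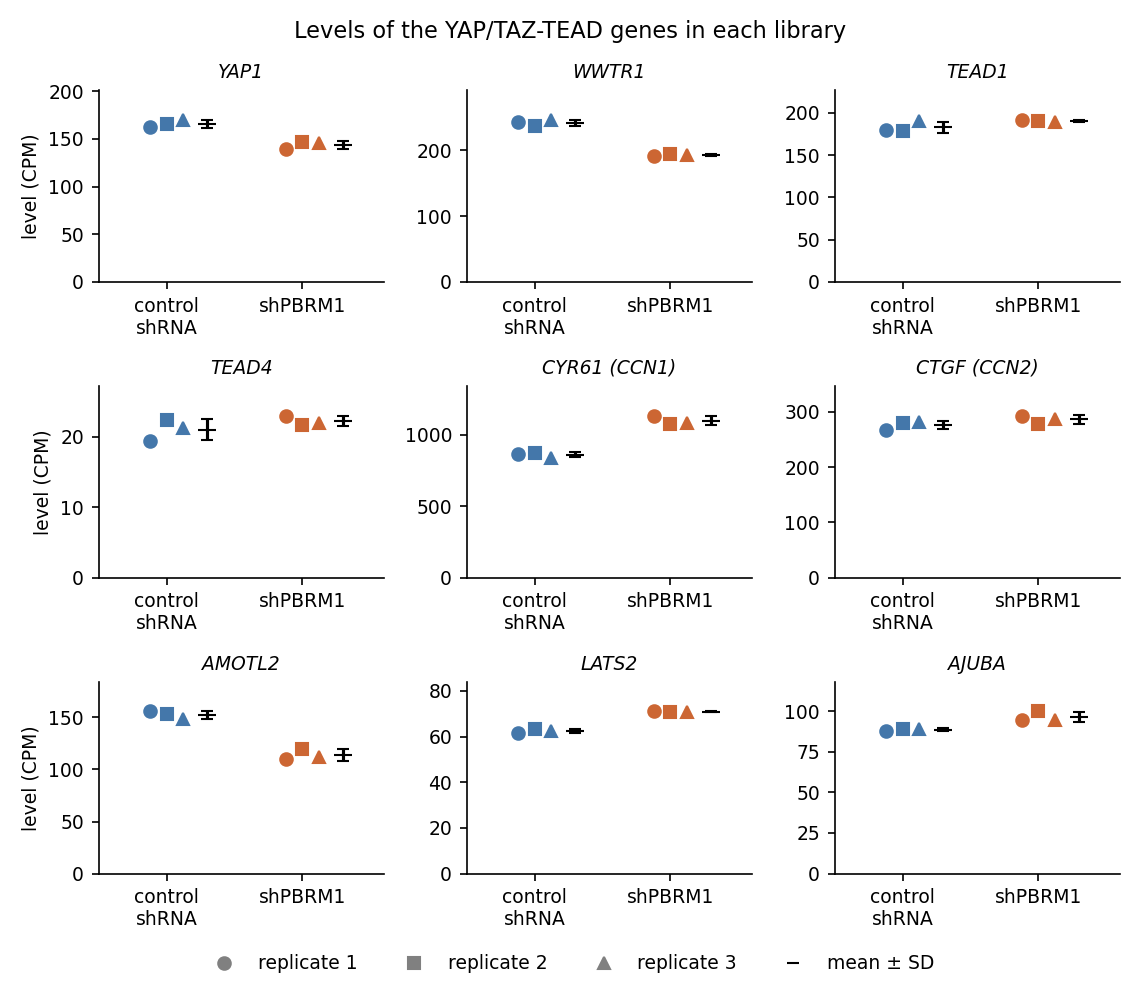
Level of each tested gene in CPM (vertical axes, linear and starting at 0) in the 3 control shRNA libraries (blue) and the 3 shPBRM1 libraries (orange), with the marker shape giving the replicate number and the black bar the mean with its SD. CYR61 stood near 859 CPM in control shRNA and 1099 CPM in shPBRM1, and the groups separated for YAP1, WWTR1, CYR61, AMOTL2, LATS2 and AJUBA but not for TEAD1, TEAD4 or CTGF.

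The genes for both coactivators were lower in shPBRM1 cells. WWTR1 (chr3:149517235-149736714, minus strand; positions are from GENCODE v29, GRCh38) was at 242, 236 and 246 CPM in the control libraries, given here and below in the order of the replicate numbers, and at 191, 194 and 193 CPM after DOX. Every shPBRM1 library lay below every control library. The level fell by 20.2% (log2 fold change -0.33, standard error 0.018, adjusted p = 2.90e-08 in edgeR). Standard errors, here and below, were calculated outside edgeR using library log2 CPM, and are not those of its fitted model. YAP1 (chr11:102110461-102233423, plus strand) was at 162, 166 and 170.0 CPM in the control libraries and 139, 146 and 145 CPM in the shPBRM1 libraries. These values did not overlap either, and YAP1 fell by 13.5% (log2 fold change -0.21, standard error 0.030, adjusted p = 2.12e-05 in edgeR). The decrease was smaller than a fold change of 1.2 by point estimate for YAP1, which did not pass a test against that fold (adjusted p = 1 in edgeR's glmTreat), whereas WWTR1 did (adjusted p = 0.034).

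The balance of both coactivator transcripts was compared within each library after division by gene length, a comparison that does not depend on scaling between libraries. WWTR1 made up 52.8%, 51.6% and 52.0% of the summed length-scaled level of YAP1 and WWTR1 in the controls, and 50.7%, 49.8% and 49.8% in the shPBRM1 libraries, all below the controls. The mean share decreased by 2.02 percentage points, at 52.1% ± 0.617 (SD, n = 3) against 50.1% ± 0.511 (SD, n = 3). Groups of 3 cannot reach a p below 0.1 in a two-sided exact permutation test, and this was the value obtained. The share was lower in each same-numbered pair of libraries, as any pairing would give once the groups do not overlap. The exact sign-flip permutation test gave p = 0.25, the smallest for 3 pairs. WWTR1-AS1, which overlaps WWTR1 on the other strand, had no more than 0.415% of its counts in any library.

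Neither TEAD gene among the 10 passed the test. TEAD1 (chr11:12674591-12944483, plus strand) was at 179.6, 178 and 190.2 CPM in control shRNA and 192, 190 and 189 CPM in shPBRM1 libraries. Control replicate 3 lay within the shPBRM1 range and the other controls below it (log2 fold change 0.058, standard error 0.030, adjusted p = 0.171 in edgeR). The 95% interval of the TEAD1 difference was -0.025 to 0.14 on the log2 CPM scale. Without control replicate 3 the log2 fold change was 0.087 (adjusted p = 0.043 in edgeR), so that this library decided the call. TEAD4 (chr12:2959330-3040673, plus strand) was at 19.4, 22.3 and 21.2 CPM in control shRNA and 23.0, 21.6 and 21.9 CPM in shPBRM1, with overlapping groups (log2 fold change 0.078, standard error 0.066, adjusted p = 0.300 in edgeR). Its 95% interval reached from -0.10 to 0.26, and leaving out single libraries gave 0.026 (without control replicate 1) to 0.13 (without control replicate 2), with no call.

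The paralogous factors TEAD2 and TEAD3 both fell. TEAD2 decreased from 65.3 ± 2.38 to 55.9 ± 4.48 CPM (SD, n = 3 each; log2 fold change -0.23, adjusted p = 2.23e-04 in edgeR) and TEAD3 from 16.2 ± 1.39 to 13.4 ± 0.635 CPM (log2 fold change -0.27, adjusted p = 0.0031). The part of the length-scaled TEAD level that came from TEAD1 and TEAD4 was 49.2%, 49.3% and 50.9% in the controls. In the shPBRM1 libraries it was 56.3%, 52.7% and 56.0%, above every control library. The difference of the means was 5.21 percentage points (exact permutation test, p = 0.1, again the smallest possible, and p = 0.25 for the 3 pairs). Among the single factors, TEAD2 held the largest mean share in control shRNA, 40.4% ± 0.643 against 32.8% ± 1.21 for TEAD1. In shPBRM1 libraries these were close, at 36.4% ± 1.88 for TEAD2 and 35.998% ± 1.07 for TEAD1 (SD, n = 3 each). The order of TEAD1 and TEAD2 rests on division by gene length (10.279 kb and 2.98 kb), and so on the isoforms used. Without that division TEAD1 was the higher in control shRNA, at 182.7 against 65.3 CPM. TEAD4 made up 17.0% ± 0.852 of the TEAD level in control shRNA and 19.0% ± 0.956 in shPBRM1.

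CYR61 and CTGF encode secreted matricellular proteins of the CCN family and are direct TEAD targets. CYR61 (chr1:85580761-85583962, plus strand) was at 868, 870.4 and 839.8 CPM in the control libraries and at 1134, 1077 and 1085 CPM in the shPBRM1 libraries. All shPBRM1 libraries lay above all controls, with a rise of 27.9% (log2 fold change 0.35, standard error 0.029, adjusted p = 9.71e-09 in edgeR), the largest increase among the 9 tested genes. CTGF (chr6:131948176-131951373, minus strand) was at 267, 279 and 281 CPM in control shRNA and 293, 278 and 288 CPM in shPBRM1 libraries. The groups overlapped, and CTGF did not pass the test (log2 fold change 0.054, standard error 0.032, adjusted p = 0.236 in edgeR). The 95% interval of the CTGF difference, -0.036 to 0.14, did not reach that of CYR61, 0.27 to 0.43, although the difference between these genes was not itself tested. Leaving out single libraries gave CTGF changes of 0.031 (without control replicate 1) to 0.081 (without shPBRM1 replicate 2).

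ANKRD1 (chr10:90912096-90921276, minus strand), an ankyrin-repeat protein gene and a common YAP readout in other cells, had 0, 2 and 0 counts in control shRNA and 1, 0 and 0 counts in shPBRM1 libraries. Both groups were at or under the floor of 3 counts, equal to 0.0471 to 0.0804 CPM in these libraries, and no fold change is given. At this depth a difference in ANKRD1 was not detectable.

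The 250 bases before the CTGF start are shown because they carry 3 copies of GGAATG, the core of the TEAD binding motif, in front of a gene that did not pass the test. The sequence is from RefSeq (GRCh38.p14, minus strand, read 5′ to 3′), with the motif in capitals.
CTGF promoter (chr6:131951373-131951622): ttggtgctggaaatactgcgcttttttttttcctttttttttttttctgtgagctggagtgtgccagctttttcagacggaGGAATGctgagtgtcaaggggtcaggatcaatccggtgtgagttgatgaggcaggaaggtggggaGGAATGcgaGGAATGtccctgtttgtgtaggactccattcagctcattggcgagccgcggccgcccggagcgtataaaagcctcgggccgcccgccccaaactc
Of 35116 such windows in the RefSeq table, 0.0826% held at least 3 copies of GGAATG or its reverse complement CATTCC and 11.9% held at least 1. A match of letters does not show that a factor binds there.

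For 7 of the 10 genes the RefSeq table held a promoter, with 10 windows of 300 bases (250 before and 50 after a start), and TEAD1, TEAD4 and CYR61 had none. The 6-base motif was found in 6 of these windows, against 14% of all windows, and in 6 of the 7 genes, WWTR1 being the exception. The genes were chosen as YAP/TAZ-TEAD factors and targets, so this count is no separate result. Stretches of 30 bases around single matches are given to set the genes that fell beside those that rose and the one not detected, on the strand of each gene, with the motif in capitals.
YAP1 (chr11:102110273-102110302): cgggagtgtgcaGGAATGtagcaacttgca
AMOTL2 (chr3:134374499-134374528): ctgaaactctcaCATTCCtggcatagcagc
LATS2 (chr13:21061560-21061589): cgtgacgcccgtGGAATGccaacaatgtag
AJUBA (chr14:22976884-22976913): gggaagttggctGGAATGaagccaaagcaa
ANKRD1 first match (chr10:90921290-90921319): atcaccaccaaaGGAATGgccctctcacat
ANKRD1 second match (chr10:90921198-90921227): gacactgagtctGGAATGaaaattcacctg
The LATS2 match began 10 bases after the RefSeq start of its window, which lies before the GENCODE v29 start of the gene. The AMOTL2 match was the reverse complement, from 69 bases before the second listed start. The AJUBA match began 59 bases before the second listed start of AJUBA. For AMOTL2 and AJUBA, the window of the first listed start held no match. The AMOTL2, AJUBA and second ANKRD1 matches lay within the GENCODE v29 gene, after its annotated start. Genes with a match included YAP1 and AMOTL2, which fell, LATS2 and AJUBA, which rose, CTGF, which did not pass the test, and ANKRD1, which was not detected.

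**Figure D2:**
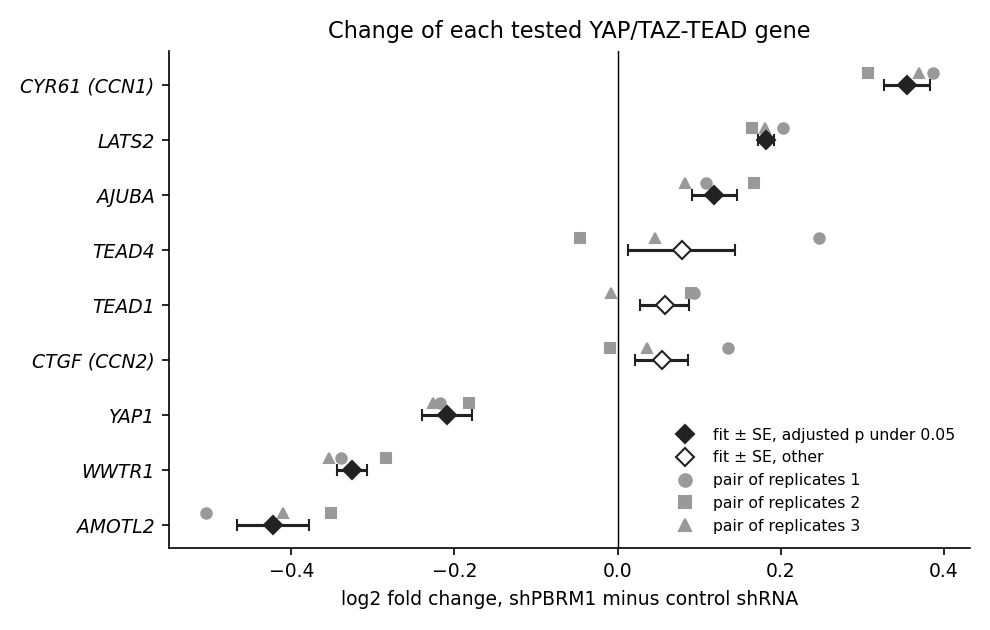
Log2 fold change of each tested gene (horizontal axis, shPBRM1 minus control shRNA). Diamonds give the edgeR log2 fold change, filled where the adjusted p was under 0.05, and grey markers the 3 same-numbered pairs of libraries. Error bars are standard errors calculated outside edgeR, using the log2 CPM of the 3 libraries in each group. CYR61, LATS2 and AJUBA were higher and AMOTL2, WWTR1 and YAP1 lower in all 3 pairs. The groups did not overlap for these genes, so any pairing would give that agreement. TEAD1, TEAD4 and CTGF had 1 pair on the other side of 0.

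AMOTL2 (chr3:134355874-134375479, minus strand) showed the largest decrease of the 9 tested genes. It encodes an angiomotin-family junction protein that binds and retains YAP and is itself induced by YAP. AMOTL2 was at 156, 153 and 148 CPM in control shRNA and 109.8, 119.9 and 112 CPM in shPBRM1 libraries. The groups were well apart, and the level fell by 25.4% (log2 fold change -0.42, standard error 0.044, adjusted p = 1.15e-09 in edgeR). The related AMOTL1 rose from 98.5 ± 3.15 to 110.3 ± 1.182 CPM (log2 fold change 0.16, adjusted p = 1.83e-04), and AMOT was at 15.6 ± 0.934 and 13.97 ± 1.28 CPM (log2 fold change -0.16, adjusted p = 0.083). With the replicate number as a block, AMOT passed the test (adjusted p = 0.049 in edgeR), as it did with scaling by library size alone (adjusted p = 0.027). Its change ranged from -0.083 (without shPBRM1 replicate 2) to -0.20 (without control replicate 3). The AMOTL2 share of the length-scaled level of AMOT, AMOTL1 and AMOTL2 was 68.6% ± 0.850 in control shRNA and 60.1% ± 1.19 in shPBRM1 libraries (SD, n = 3 each), without overlap.

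LATS2 (chr13:20973032-21061547, minus strand), the YAP/TAZ kinase gene that YAP itself induces, was at 61.8, 63.2 and 62.6 CPM in control shRNA and 71.1, 70.9 and 70.9 CPM in shPBRM1 libraries. The groups did not overlap, and LATS2 rose by 13.5% (log2 fold change 0.18, standard error 0.0098, adjusted p = 1.02e-04 in edgeR). With 2306 to 4519 counts per library, counting error alone would give a larger standard error, so this one understates the uncertainty. Its paralogue LATS1 moved the other way, from 101.6 ± 1.55 to 59.5 ± 0.901 CPM (SD, n = 3 each; log2 fold change -0.77, standard error 0.018, adjusted p = 3.22e-15). By length-scaled level, LATS2 was 48.8% ± 0.544 of the summed LATS1 and LATS2 transcripts in control shRNA and 64.9% ± 0.368 in shPBRM1 libraries. LATS1 was the slightly larger part in the controls and the smaller part in shPBRM1 cells. The antisense gene LATS2-AS1 had at most 0.477% of the LATS2 counts.

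AJUBA (chr14:22971174-22982642, minus strand), which encodes a LIM-domain protein that binds and restrains LATS kinases at junctions, was at 87.6, 88.9 and 89.3 CPM in control shRNA and 94.5, 99.9 and 94.5 CPM in shPBRM1 libraries. Every shPBRM1 value was above the controls, by 8.55% on average (log2 fold change 0.12, standard error 0.028, adjusted p = 0.0041 in edgeR). With scaling by library size alone this change was 0.069 and did not pass (adjusted p = 0.082 in edgeR), so the AJUBA call depended on the normalization. LIMD1, of the same family, rose from 32.8 ± 0.0266 to 38.4 ± 0.918 CPM (log2 fold change 0.23, adjusted p = 3.17e-04). Its control SD is smaller than counting error would give at 1223 to 1655 counts, and so understates the uncertainty. WTIP was at 11.1 ± 1.11 and 12.2 ± 1.09 CPM and did not pass the test (adjusted p = 0.190). AJUBA made up 81.4% ± 0.431 and 80.4% ± 0.439 of the length-scaled level of AJUBA, LIMD1 and WTIP, and the groups did not overlap but nearly touched, with 81.1% in control replicate 2 and 80.9% in shPBRM1 replicate 2.

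Compared per kilobase of exon, CYR61 was the highest of the 10 genes, with 350.0 ± 6.88 CPM per kb in control shRNA and 447.5 ± 12.7 in shPBRM1 (SD, n = 3 each). CTGF followed with 118 ± 3.18 and 122 ± 3.41 CPM per kb. In the controls WWTR1 (28.7 ± 0.595), YAP1 (26.4 ± 0.648), AMOTL2 (25.5 ± 0.636), TEAD1 (17.8 ± 0.634), AJUBA (14.8 ± 0.149), LATS2 (11.2 ± 0.130) and TEAD4 (9.24 ± 0.661) came next, in CPM per kb. Only YAP1 and AMOTL2 had overlapping libraries among these neighbours. In shPBRM1 cells WWTR1 (22.9 ± 0.157) and YAP1 (22.8 ± 0.601) no longer separated, and AMOTL2 (19.0 ± 0.902) overlapped TEAD1 (18.5 ± 0.132). Lengths are unions of all annotated exons, so the order across genes depends on the isoforms that the cells use.

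**Figure D3:**
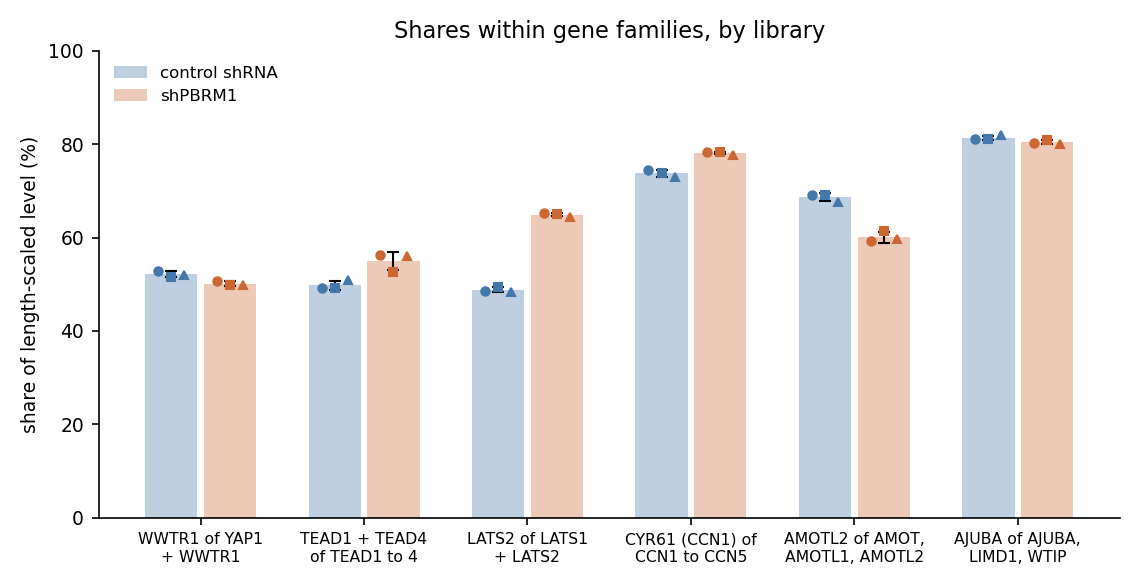
Share of the length-scaled level (vertical axis, percent) held by the named gene within its family in control shRNA (blue) and shPBRM1 (orange) libraries; bars are means, error bars SD and symbols the 3 libraries. The largest shift was that of LATS2, from 48.8% to 64.9%, and the WWTR1 share decreased by 2.02 percentage points.

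The other CCN family genes were all far below CYR61 and CTGF. NOV (CCN3) fell from 14.8 ± 0.797 to 7.17 ± 0.721 CPM (log2 fold change -1.04, standard error 0.095, adjusted p = 2.85e-10 in edgeR), and WISP2 (CCN5) from 4.32 ± 0.307 to 2.35 ± 0.484 CPM (log2 fold change -0.86, adjusted p = 1.79e-05). WISP1 (CCN4) had 42, 58 and 44 counts in control shRNA and 0, 0 and 4 counts in shPBRM1 libraries. Its summed level in shPBRM1 was 2.33% of the control level, with an exact 95% interval of 0.626% to 6.09% that covers counting error only. WISP3 (CCN6) had between 3 and 13 counts and was not tested, as were ANKRD2 and ANKRD23, the relatives of ANKRD1, with at most 5 and 15 counts. CYR61 made up 73.8% ± 0.743 of the length-scaled CCN1 to CCN5 level in control shRNA and 78.1% ± 0.305 in shPBRM1 libraries. The CYR61, LATS2, AMOTL2 and AJUBA shares were computed after the levels had been seen and were not tested. Of 10 tested paralogues, 2 rose and 6 fell, 80% in all beside 64.7% of all tested genes, with a median log2 fold change of -0.25.

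A published list of 22 YAP/TAZ target genes holds 5 of the genes above (CYR61, CTGF, ANKRD1, AMOTL2 and LATS2), and the other 17 were examined as a group. All 17 were tested. In all, 7 rose and 8 fell, with 2 not passing, and the median log2 fold change was 0.035 against -0.0080 for all tested genes. The share called, 88.2%, is to be read beside the 64.7% called among all genes. Among the genes that rose, IGFBP3, a binding protein for insulin-like growth factors, increased from 316 to 531 CPM (log2 fold change 0.75, standard error 0.017, adjusted p = 6.87e-14 in edgeR). FJX1, PTPN14 and NUAK2 rose by log2 fold changes of 0.64, 0.61 and 0.60, with non-overlapping libraries. PTPN14 encodes a phosphatase that binds and restrains YAP, and NUAK2 a kinase that promotes YAP activity.

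The decreases in this list reached further than the increases. GADD45A, a stress-induced growth arrest gene, fell from 38.8 to 15.5 CPM (log2 fold change -1.33, standard error 0.073, adjusted p = 1.29e-14 in edgeR). TGFB2, a TGF-beta ligand, fell from 38.0 to 18.8 CPM (log2 fold change -1.02, standard error 0.033, adjusted p = 1.76e-13). RBMS3, an RNA-binding protein gene, and NT5E, the ecto-nucleotidase CD73, fell by log2 fold changes of -0.73 and -0.41. No gene of the list rose more than 2-fold, and 4 fell more than 2-fold: GADD45A, TGFB2, F3 and FOXF2, the last pair named after their values were seen. TGFB2 was close to that limit and fell short of it without control replicate 3 (-0.994) or shPBRM1 replicate 1 (-0.993). Over all tested genes, 9.68% fell and 2.87% rose past 2-fold. F3, which encodes tissue factor, had 48, 44 and 64 counts in control shRNA and 12, 10 and 16 in shPBRM1 (log2 fold change -2.28, adjusted p = 1.59e-06). FOXF2 had between 6 and 22 counts in any library, and its call (adjusted p = 0.043) was lost with the replicate block (adjusted p = 0.058), DESeq2 (adjusted p = 0.164) or no low-count filter (adjusted p = 0.088), and without any one of control replicate 1 or 3 or shPBRM1 replicate 1 or 3 (adjusted p between 0.052 and 0.275).

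**Figure D4:**
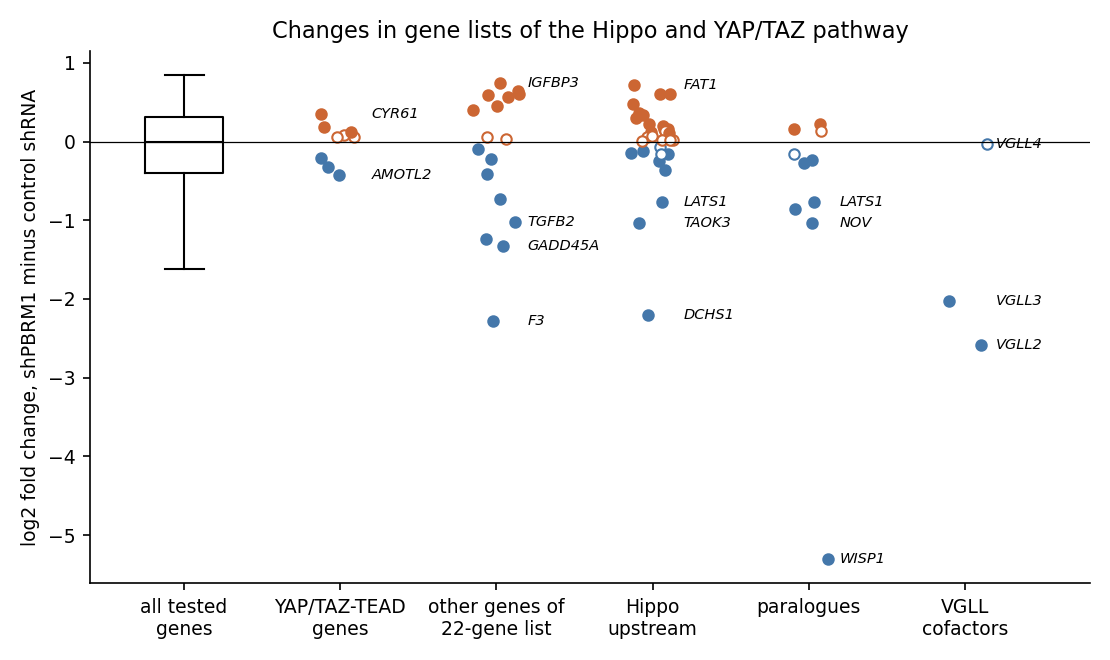
Log2 fold change (vertical axis, shPBRM1 minus control shRNA) of the tested genes of each list, orange above and blue below 0, filled where the adjusted p was under 0.05; the box gives the 25th to 75th percentile of all 15450 tested genes, -0.40 to 0.31, and its whiskers the 5th and 95th, -1.62 and 0.85. The 9 tested YAP/TAZ-TEAD genes lay between -0.42 and 0.35. VGLL3, VGLL2, F3, DCHS1 and WISP1 lay below the lower whisker, and the fitted value of WISP1 rests on 4 counts in shPBRM1.

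Upstream of YAP and TAZ, 30 genes of the Hippo kinase module and its regulators were all tested, and 13 rose, 8 fell and 9 did not pass. That is 70% called beside 64.7% of all genes, with a median log2 fold change of 0.066. The list mixes genes that promote LATS activation, such as NF2, with relatives of AJUBA, so its counts and median give no direction of the pathway. The list shares 6 genes with those above, PTPN14 and the paralogues LATS1, AMOT, AMOTL1, LIMD1 and WTIP. The largest increases were in FAT1, a giant protocadherin (444 to 729 CPM, log2 fold change 0.72, standard error 0.065, adjusted p = 3.37e-12 in edgeR), and PTPN14. NF2, which encodes the junction protein Merlin that promotes LATS activation, rose from 179 to 273 CPM (log2 fold change 0.60, standard error 0.019, adjusted p = 7.89e-13). MOB1B, a LATS cofactor, rose from 55.9 to 77.8 CPM (log2 fold change 0.48). Among genes averaging 100 counts or more, the largest decreases were in TAOK3, a kinase upstream of MST and LATS (23.0 to 11.2 CPM, log2 fold change -1.03, standard error 0.080, adjusted p = 1.90e-11), and LATS1, described above. STK4, which encodes MST1, fell from 266 to 208 CPM (log2 fold change -0.36, adjusted p = 7.78e-09), and the scaffold gene WWC3 fell by a log2 fold change of -0.24. DCHS1, named after its values were seen, was the other gene of the list to fall more than 2-fold, from 20, 56 and 59 counts to 16, 6 and 12 counts (log2 fold change -2.21, adjusted p = 2.40e-05), a larger fold on far fewer counts. TAOK3 fell short of 2-fold without control replicate 3 (-0.995) or shPBRM1 replicate 1 (-0.969).

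The VGLL proteins bind TEAD factors in place of YAP and TAZ. VGLL3 was at 82.5, 75.2 and 84.6 CPM in control shRNA and at 18.9, 19.9 and 20.8 CPM in shPBRM1 libraries. It fell by 75.4% (log2 fold change -2.02, standard error 0.066, adjusted p = 1.02e-19 in edgeR), a wider change than that of any of the 9 tested YAP/TAZ-TEAD genes. VGLL2, named after its values were seen, had 127, 126 and 165 counts in control shRNA and 45, 12 and 27 in shPBRM1 (log2 fold change -2.59, standard error 0.37, adjusted p = 1.74e-09). VGLL4, a repressor of TEAD output, was at 28.1 ± 1.83 and 27.4 ± 0.561 CPM (log2 fold change -0.032, adjusted p = 0.652), with a 95% interval of the difference of -0.19 to 0.12. VGLL1 had at most 1 count.

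Over the 6 libraries, the genes most like CYR61 in log2 CPM, among 11540 other genes averaging 100 counts or more, were APOO, HIST2H2AA4 and ARHGAP10, with Pearson r of 0.9991, 0.9990 and 0.9988. For AMOTL2 they were R3HDM2, GPC2 and SP1, with r of 0.9995, 0.9986 and 0.9975. In all, 230 genes had an r over 0.99 with CYR61 and 142 genes with AMOTL2. The libraries fall into 2 groups, and any gene with a group difference that is large beside its spread has a high r, so these values are a description. HIST2H2AA4 has a near-identical copy, so its counts are uncertain.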

How the data were processed

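RNA-seq counts were analyzed for 3 control shRNA and 3 shPBRM1 libraries made with a stranded mRNA kit. The authors deposited 1 table of unnormalized read counts, with a row for each symbol. The submitters' processing notes name CASAVA 1.8.2, STAR 2.7.9a, featureCounts, DESeq2 1.24.0 and GRCh38.p7. The annotation and whether counting used the strand are not given in the sources used here. Columns of the control libraries carry only the cell line and a number and were matched to titles by that number. Of 37887 rows, 14 carry dates in place of symbols and were kept.

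The test was that of edgeR 4.0.16, run in R 4.3.3 (filterByExpr, TMM, quasi-likelihood F-test, Benjamini-Hochberg adjustment over 15450 genes). Standard errors and 95% intervals come from log2 CPM between replicates, with a prior count of 2, and shares were tested by exact permutation in scipy 1.17.1. Exon lengths, positions and overlaps are from GENCODE v29 (GRCh38), and promoters from RefSeq (GRCh38.p14).

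Replicates were not duplicates of each other, since their counts differed beyond sampling noise (chi-square per degree of freedom 4.92 to 24.9). The highest values, 21.5 and 24.9, were those of shPBRM1 replicate 1 with replicates 2 and 3. The value was 7.20 for shPBRM1 replicates 2 and 3, and 4.92 to 7.35 between controls. Libraries with the same replicate number in the titles deviated together across 5622 genes (r = 0.734, 0.593 and 0.419), each over 0.1, and the numbers were taken to pair them. Libraries with different numbers gave r from -0.671 to 0.464, the highest for control replicate 2 with shPBRM1 replicate 3, above that of the third pair. An r over 0.1 therefore does not single out libraries with the same number. Genes are not independent, so r carries no p here. The numbers' origin is not stated.

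The genes and lists were chosen with earlier results of these data known. All 10 genes and their paralogues were named. From the target, upstream and VGLL lists, up to 4 genes per direction with the largest change, an adjusted p under 0.05 and a mean of at least 100 counts were named. Likeness was measured by Pearson r for the called gene with the largest change in each direction. Alternatives were DESeq2 1.42.0, RLE factors, library size only, other filters, the replicate block, each library left out, a stricter threshold and glmTreat. The test was also run on simulated counts with few changed genes and no pairing. Far more genes were called here, so that run does not check the calls above.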

Additional observations from a re-analysis of the deposited data

How the results depend on the processing

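The log2 fold changes of the 9 tested genes and both tested shares kept their direction under every alternative run, and their side of the threshold but for those given here. The number of called target genes, 15, lay between 12 (glmTreat) and 15, that of upstream genes, 21, between 10 (glmTreat) and 22 (16 at an adjusted p under 0.001, and 11 higher and 9 lower with library size only), and that of paralogues, 8, between 4 (glmTreat) and 9. Tested against a fold change of 1.2 with glmTreat, 3 of the 10 genes (CYR61, AMOTL2 and WWTR1) were called; YAP1 (log2 fold change -0.21), LATS2 (0.18) and AJUBA (0.12) were not, since this test asks for a larger change. AJUBA did not pass with library size only (0.069) or an adjusted p under 0.001 (0.12). With each library left out, the TEAD1 log2 fold change lay between 0.040 and 0.087, the number of the 10 genes called was 6 or 7, and VGLL4 lay between -0.071 and 0.018, turning upward without control replicate 1. With the replicate block, the same number of the 10 genes was called (3 higher and 3 lower), the WWTR1 share differed by -2.02 percentage points and the TEAD1 and TEAD4 share by 5.21 percentage points, and apart from AMOT and FOXF2 no call of a named gene changed. For the other named genes, 412 fold changes under alternatives kept the call, 15 lost it, 2 gained it and 1 changed sign. Scaling by library size moved the median log2 fold change of all genes from -0.0080 to -0.056, and left TEAD1 at 0.0087 and CTGF at 0.0050. The depth, about 1083 counts per library for TEAD4, left intervals of the size given, and ANKRD1 was below detection.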
